A study of Mus musculus with 4 samples.

Results

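Ankyrins, spectrins and adducins form the protein skeleton under the plasma membrane, and the transcripts of 8 of their genes were followed in the mouse left hemi-diaphragm. The genes are the ankyrins Ank1, Ank2 and Ank3, the spectrins Sptan1, Sptb and Sptbn1, and the adducins Add1 and Add3. They were chosen by name: every probe set that the platform annotation gives to 1 of these symbols counted as a member, which made 33 of 45101 probe sets, and 8 of 18194 genes with a probe set of their own. Total RNA was measured on 2 one-colour arrays from the part of the muscle that holds the synapses, the synaptic region, and on 2 from the non-synaptic region, and the labels used here give no strain, age, sex or treatment and do not say how many animals were used. Each title ends in a number, 1 or 2, that both regions share without explanation. Values below are given for array number 1 first and number 2 second.

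Spectrin is a long flexible tetramer of alpha and beta chains that meshes with short actin filaments. Ankyrins tie this mesh to channels, pumps and adhesion molecules in the membrane, and adducins cap the actin filaments and recruit spectrin to them. At the neuromuscular junction, ankyrin-G and a muscle beta spectrin are known to lie with voltage-gated sodium channels in the depths of the postsynaptic folds. The comparison of the regions asks whether the transcripts of this skeleton differ in level between muscle with synapses and muscle without.

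No member differed between the regions past the test. By limma, which was fitted over 26480 probe sets with a mean log2 intensity of at least 8.87, 0 of the 27 members tested passed at an adjusted p under 0.05, against 0.0113% of all probe sets tested. At an unadjusted p under 0.05 there was 1 member, a probe set of Sptbn1, against 0.986% of all. Log2 differences, synaptic minus non-synaptic, ran from -1.16 to 0.55 over the 27 members, with 11 above 0 and 16 below, and their median was -0.05 against -0.01 over all probe sets tested. All but 2 members lay within 0.36 of 0. The 95% interval of the difference lay within 1 log2 unit of 0, that is within a 2-fold change, for 17 of the 27, against 59.9% of all probe sets. For the other members the interval from these 4 arrays held a 2-fold difference in at least 1 direction. The adjusted limma p was 0.9999 for each of the 27.

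**Figure D1:**
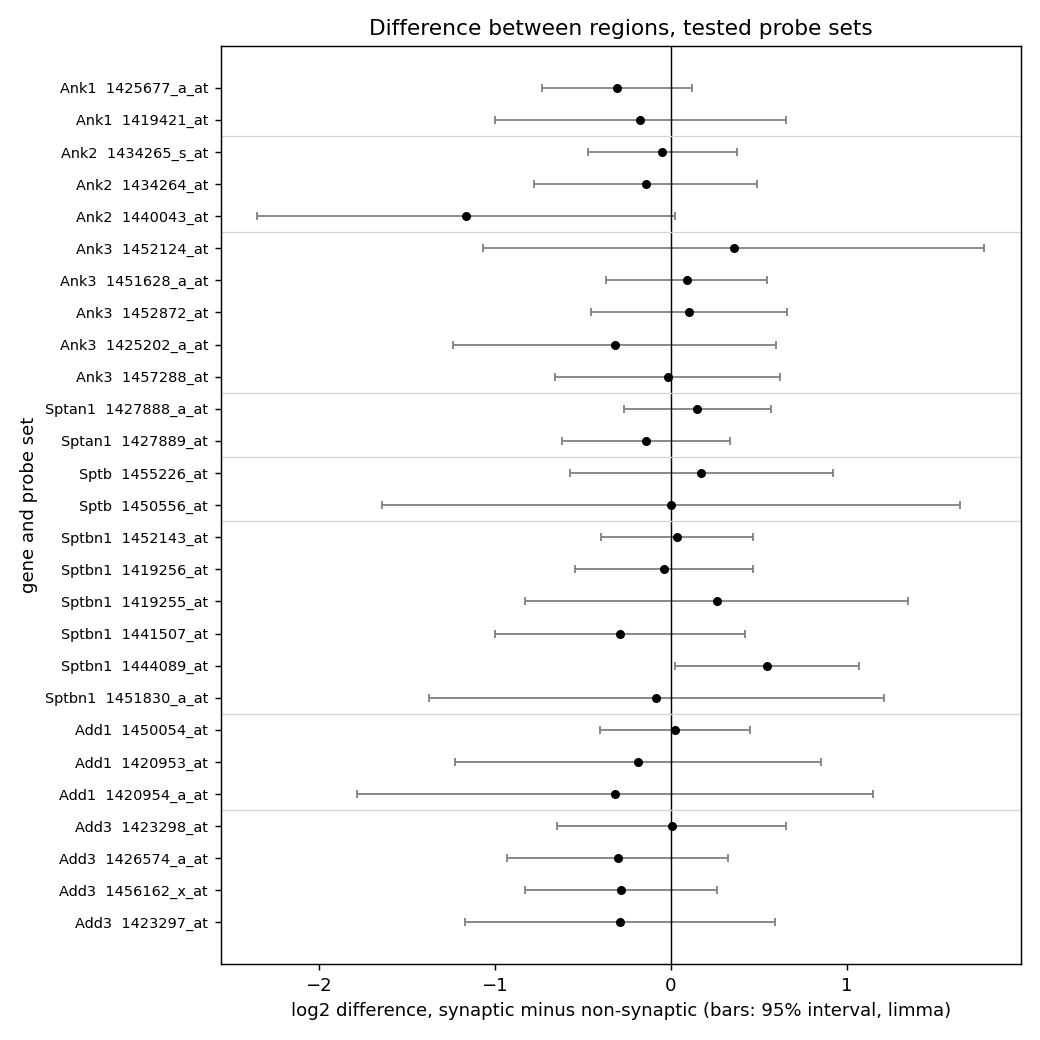
Log2 difference between the regions (synaptic minus non-synaptic, x axis) for the 27 tested probe sets, grouped by gene (y axis). Points are limma estimates from 2 arrays per region and bars are 95% intervals. The Sptbn1 probe set 1444089_at is the one whose interval leaves out 0.

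The labels were checked first, with sums taken over every listed marker that had a probe set, tested or not. All 8 muscle fibre markers were above the filter, and 7 of them had overlapping regions. The exception was the fast myosin gene Myh4, lower in both synaptic arrays, with a log2 difference of -1.32 ± 0.18 (SE, n = 2 per region, limma adjusted p = 0.492). Its other probe set gave -1.60. Of 6 markers of the muscle side of the synapse 5 were tested, and 4 of these had both synaptic arrays above both others, while the regions of Musk overlapped. Their summed intensities were 31195 and 28372 on the synaptic arrays against 7459 and 6684 on the non-synaptic arrays. Even so, 0 of the 5 tested passed at an adjusted limma p under 0.05. Chrne differed by 3.11 log2 units (limma adjusted p = 0.9999), Ache by 2.58 (0.165), Etv5 by 2.41 (0.153) and Chrna1 by 1.97 (0.198). The test thus missed differences of this size, and 0 calls among the members does not show that their levels were equal. Markers of Schwann cells, which also make ankyrins and spectrins, moved with the region. Of 14 listed, 8 were tested, and each of these 8 was higher on both synaptic arrays than on either other array. Over all probe sets tested, 9.89% were higher in this way and 9.98% lower. Egr2, Ncmap and Ugt8a passed the filter only through their synaptic values. The sum over the 11 Schwann cell markers with a probe set was 107876 and 118426 against 31118 and 32943. Adipocyte markers were lower on both synaptic arrays in 6 of 6 tested, with a median log2 difference of -2.03. Their sum, 129066 and 129945 against 172804 and 187620, is mostly Fabp4, which differed by only -0.12. Adipoq, Pck1 and Retn passed the filter only through their non-synaptic values. Of 5 smooth muscle and pericyte markers tested, 3 were lower on both synaptic arrays, with a median of -0.20. Of 7 endothelial markers tested, 1 was higher on both synaptic arrays, with a median over the 7 of -0.19. The regions of the other markers in these lists overlapped. Of 10 axon and neuron markers 8 lay below the filter, and the sum was 3990 and 4804 against 4478 and 4590. Of 12 red blood cell markers 7 had a probe set and 3 were tested, namely Alas2, Hbb-b2 and Slc4a1. Epb42 and Rhag were at the floor of 7.31 on 3 of 4 arrays. The sum was 7081 and 5862 against 8426 and 6864, and most of it was Alas2, at 4546 and 3352 against 5161 and 4121. Their part in the values of the members was not tested, and in these bulk samples fewer cells of a type cannot be told apart from less RNA per cell.

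Members were set apart by the number in the titles more often than by region. Both arrays numbered 1 lay above or below both arrays numbered 2 in 21 of 27 members (77.8%), against 61.4% of all probe sets tested. The synaptic arrays lay above or below both non-synaptic arrays in 6 of 27 (22.2%), against 19.9% of all. Of these 6, 2 were higher in the synaptic region and 4 lower, against 9.89% and 9.98% of all probe sets. The difference between numbers was larger in size than that between regions in 21 of 27 members, against 71.7% of all. Its median size over the members was 0.40 log2 units for the numbers and 0.17 for the regions, against 0.29 and 0.14 over all probe sets tested. What the number marks is not stated. The Actb control probe sets gave 3' over 5' signal ratios, which reflect RNA quality, of 1.37 and 1.27 on the synaptic and non-synaptic arrays numbered 1. On those numbered 2 they gave 1.19 and 1.20. The Gapdh control probe sets gave 1.03 and 0.85 on the arrays numbered 1 and 0.81 and 0.81 on those numbered 2. The part of RNA quality in the split was not tested.

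**Figure D2:**
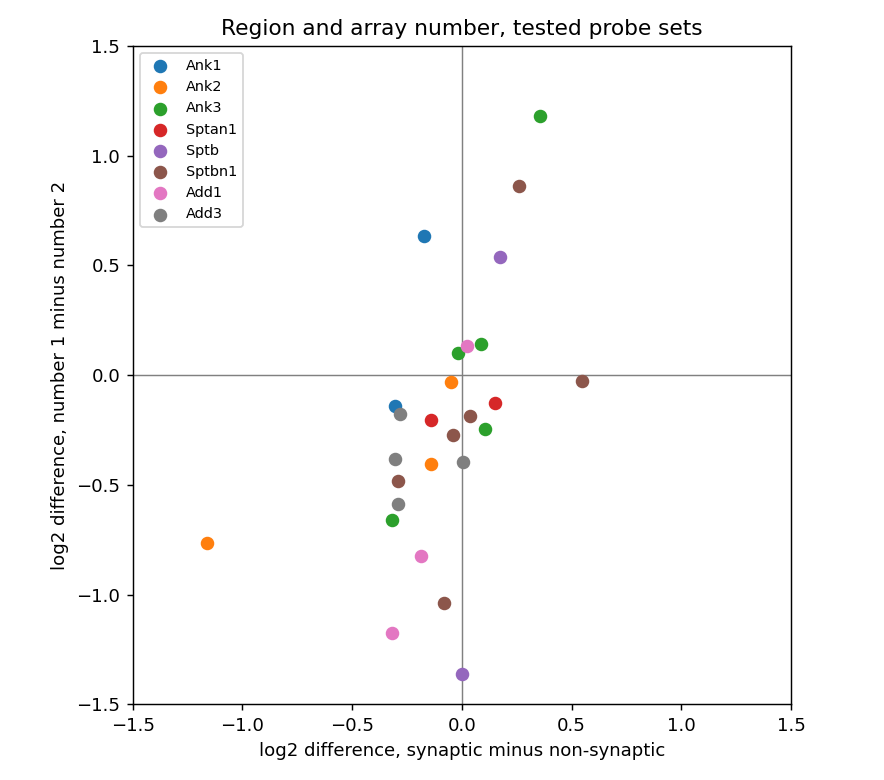
Log2 difference between the regions (x axis) against the log2 difference between arrays numbered 1 and 2 (y axis) for the 27 tested probe sets, 1 point each, coloured by gene. The points spread from -1.36 to 1.18 on the vertical axis, and all but 2 lie within 0.36 of 0 on the horizontal axis.

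The direction of that split was not the same for all probe sets of a gene. Arrays numbered 1 were both above in 7 members and both below in 14, against 28.3% and 33.0% of all probe sets tested. Ank3, Sptb, Sptbn1 and Add1 each had members of both kinds, so the split does not follow the gene. Probe sets of a gene share its RNA and are not replicates of each other, and where each lies in its transcript is not given in the sources used here.

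Ank1 encodes ankyrin-R, the ankyrin first known from red blood cells, and in striated muscle it also gives a small isoform that holds the sarcoplasmic reticulum to obscurin at the sarcomere. Its brightest probe set, 1425677_a_at, read 16718 and 19164 intensity units on the synaptic arrays and 21455 and 22815 on the non-synaptic arrays. Both synaptic arrays were the lower, and the log2 difference was -0.31 ± 0.17 (SE, n = 2 arrays per region, 95% interval -0.73 to 0.12, limma unadjusted p = 0.125). The second, 1419421_at, read 14450 and 8858 against 15486 and 10504. Here the arrays numbered 1 stood above those numbered 2 in both regions, and the difference was -0.17 ± 0.32. Both other probe sets of Ank1 were below the filter and were not tested, with 198 and 111 against 408 and 342 for 1443291_at and at most 199 on any array for 1452512_a_at. Each of these 4 probe sets had a lower synaptic than non-synaptic value within each number.

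Ank2 encodes ankyrin-B, which in heart and skeletal muscle holds ion transporters and dystrophin complex proteins in place. The suffixes s and x are the maker's marks for probe sets that can also match other transcripts. The brightest probe set of Ank2, 1434265_s_at, was nearly level, at 9822 and 10162 on the synaptic arrays against 10284 and 10369 on the non-synaptic arrays. The log2 difference was -0.05 ± 0.17 (SE, n = 2 per region, 95% interval -0.47 to 0.38), so that a change beyond 0.721-fold or 1.30-fold lies outside the interval. The dim probe set 1440043_at had the largest difference of all members. It read 284 and 520 in the synaptic region against 685 and 1081 in the non-synaptic region, lower in both synaptic arrays. Its difference was -1.16 ± 0.47 (95% interval -2.35 to 0.02, limma unadjusted p = 0.0530), with -1.27 between the arrays numbered 1 and -1.06 between those numbered 2. With the floor at the 40th percentile it was -0.80. Without the synaptic array numbered 1 it was -0.73, and without the synaptic array numbered 2 it was -1.60. This probe set passed the filter in 11 of 13 alternative fits. The third tested probe set, 1434264_at, gave -0.14 ± 0.25, so the size seen on 1440043_at was not shared by the brighter probe sets. Another 3 probe sets of Ank2 lay below the filter, of which 1440042_at was at the floor on all 4 arrays.

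Ank3 encodes ankyrin-G, the ankyrin that gathers sodium channels at axon initial segments, nodes of Ranvier and the postsynaptic folds. Its brightest probe set, 1452124_at, read 38896 and 13822 on the synaptic arrays and 24495 and 13400 on the non-synaptic arrays. The synaptic array numbered 1 stood above the other 3, and the arrays numbered 2 were near each other. The log2 difference was 0.36 ± 0.56 (SE, n = 2 per region, 95% interval -1.07 to 1.78), with 0.67 between arrays numbered 1 and 0.04 between those numbered 2. Leaving out the synaptic array numbered 1 gave -0.39, and leaving out the synaptic array numbered 2 gave 1.10. The next, 1451628_a_at, read 10437 and 9706 against 10067 and 8889. Its regions overlapped, and the difference was 0.09 ± 0.18 (95% interval -0.37 to 0.55). The other tested probe sets gave 0.11 for 1452872_at, -0.32 for 1425202_a_at and -0.02 for 1457288_at, none past the test. Probe set 1447259_at was below the filter, at 63.1 and 288 in the synaptic region and 50.9 and 67.9 in the non-synaptic region.

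**Figure D3:**
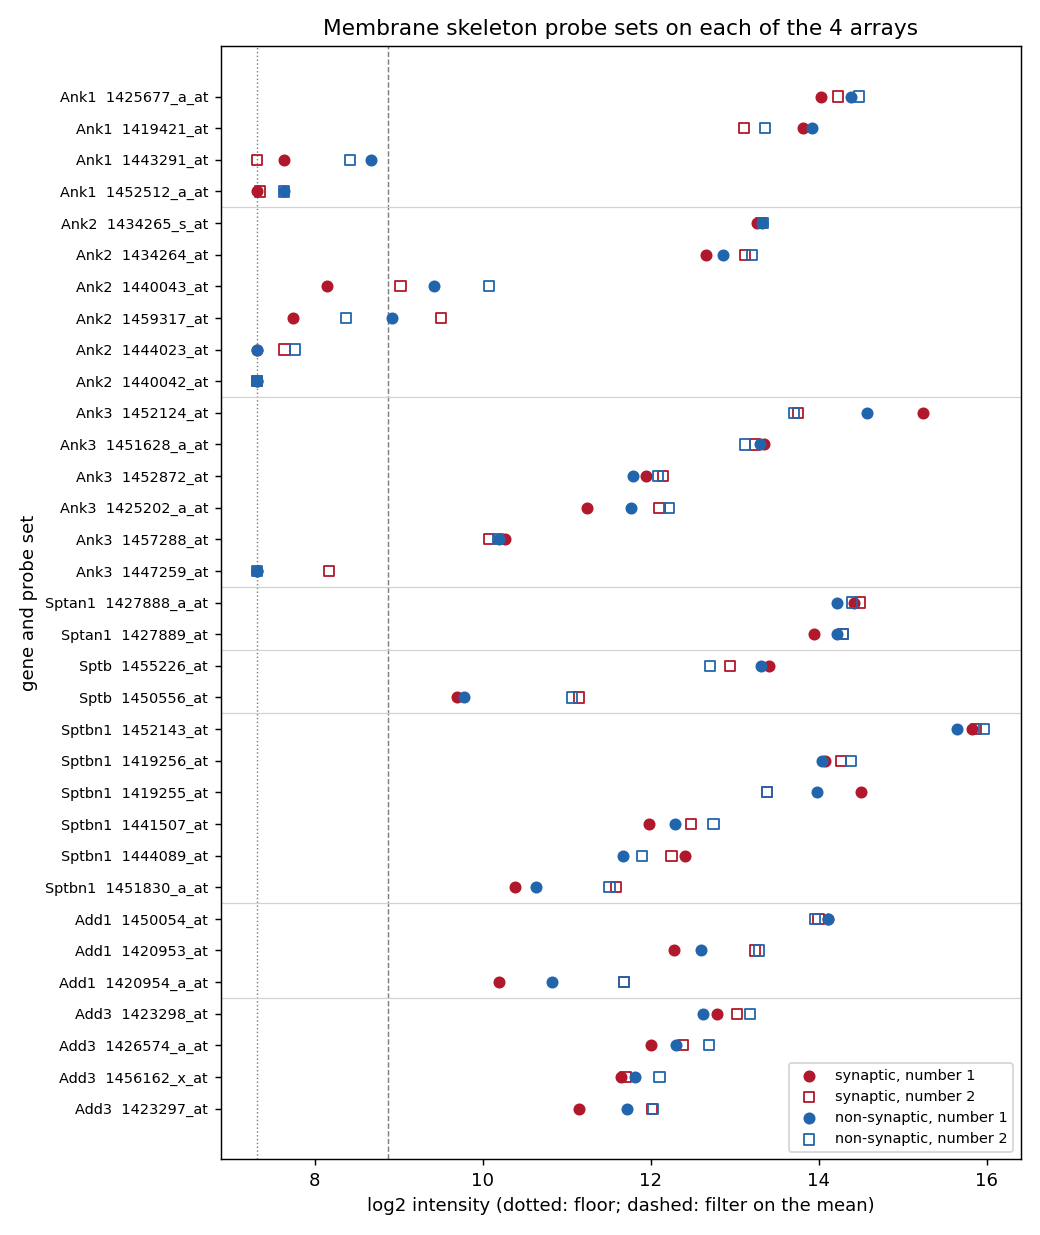
Log2 intensity (x axis) of all 33 member probe sets (y axis) on each of the 4 arrays, with colour for the region and marker shape for the number in the title. The dotted line is the floor at 7.31 and the dashed line the filter at 8.87. Circles and squares are apart for most probe sets, while the colours mix.

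Sptan1 encodes alpha-II spectrin, the alpha chain of most cells other than red blood cells. Probe set 1427888_a_at read 21901 and 23041 in the synaptic region and 18986 and 21566 in the non-synaptic region, with both synaptic arrays the higher. The log2 difference was 0.15 ± 0.16 (SE, n = 2 per region, 95% interval -0.27 to 0.57). Probe set 1427889_at read 15802 and 19975 against 19084 and 20087. Its regions overlapped, with a difference of -0.14 ± 0.19, so that the signs of the 2 probe sets differed and both intervals held 0. The Sptan1 promoter is shown because it was the only one of 12 promoter windows, from 6 of the member genes in the RefSeq table, that held an N-box. The N-box, searched here as CCGGAA on both strands, is the ETS factor motif known from genes transcribed at the synapse. Of 32851 windows of all genes, each of 300 bases from 250 before to 50 after a transcription start, 14.9% held it. The window (GRCm38.p6, chr2:29965310-29965609, plus strand) is printed with the match in capitals, and the match is a description of the letters and not of a factor's binding.
Sptan1: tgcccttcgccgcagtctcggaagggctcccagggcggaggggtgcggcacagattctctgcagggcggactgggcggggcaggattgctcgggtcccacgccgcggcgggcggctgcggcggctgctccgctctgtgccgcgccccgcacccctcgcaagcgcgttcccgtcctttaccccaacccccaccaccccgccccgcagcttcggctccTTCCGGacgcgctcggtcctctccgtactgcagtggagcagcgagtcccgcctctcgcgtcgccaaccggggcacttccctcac

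Sptb encodes beta-I spectrin, the chain of red blood cells and of the muscle fibre membrane. Its brighter probe set, 1455226_at, read 10906 and 7897 in the synaptic region and 10172 and 6663 in the non-synaptic region. Both arrays numbered 1 were above both numbered 2, and the log2 difference between regions was 0.17 ± 0.29 (SE, n = 2 per region, 95% interval -0.57 to 0.92). The other, 1450556_at, read 830 and 2263 against 878 and 2133. Here both arrays numbered 1 were below both numbered 2, by 1.36 log2 units, while the regions differed by 0.002 ± 0.64. The region difference was -0.08 between arrays numbered 1 and 0.09 between those numbered 2, so this SE includes the number split. The number split of the 2 Sptb probe sets thus ran in opposite directions, at 0.54 and -1.36.

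Sptbn1 encodes beta-II spectrin, the widely expressed beta chain that pairs with alpha-II. The brightest of its 6 probe sets, 1452143_at, read 57929 and 60001 in the synaptic region and 51480 and 64200 in the non-synaptic region. The regions overlapped, with a log2 difference of 0.04 ± 0.17 (SE, n = 2 per region, 95% interval -0.39 to 0.47). Probe set 1444089_at was the one member with an unadjusted p under 0.05. It read 5442 and 4861 on the synaptic arrays and 3268 and 3802 on the non-synaptic arrays, both synaptic arrays being higher and the arrays numbered 1 and 2 overlapping. The difference was 0.55 ± 0.21 (95% interval 0.02 to 1.07, limma unadjusted p = 0.0438). It was 0.74 between arrays numbered 1 and 0.35 between those numbered 2, and leaving out each array in turn gave from 0.44 to 0.65. The other 4 probe sets of Sptbn1 gave from -0.29 to 0.26. Among them 1419255_at read 23304 and 10699 against 16214 and 10705, with the synaptic array numbered 1 above the rest, and gave 0.82 without the synaptic array numbered 2 and -0.30 without the one numbered 1.

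Both annotated starts of Sptbn1 are shown because its 6 probe sets did not give 1 value and the gene begins at more than 1 place. They were read from the RefSeq table (GRCm38.p6, minus strand, chr11:30219723-30220022 for the first and chr11:30198208-30198507 for the second). Capitals mark the E-box, searched as CANNTG, which reads the same on both strands and is the motif of myogenic factors. The first window held 6 matches, 2 of which overlap each other, and the second held 2. Among the member windows 9 of 12 held an E-box, against 72.3% of all windows, and the array values do not tell the starts apart.
Sptbn1 first start: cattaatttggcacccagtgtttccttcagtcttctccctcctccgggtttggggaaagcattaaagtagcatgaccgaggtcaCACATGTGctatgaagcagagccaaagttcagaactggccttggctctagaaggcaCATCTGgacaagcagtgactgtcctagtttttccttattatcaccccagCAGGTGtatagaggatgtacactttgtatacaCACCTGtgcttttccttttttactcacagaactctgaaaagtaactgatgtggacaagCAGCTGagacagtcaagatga
Sptbn1 second start: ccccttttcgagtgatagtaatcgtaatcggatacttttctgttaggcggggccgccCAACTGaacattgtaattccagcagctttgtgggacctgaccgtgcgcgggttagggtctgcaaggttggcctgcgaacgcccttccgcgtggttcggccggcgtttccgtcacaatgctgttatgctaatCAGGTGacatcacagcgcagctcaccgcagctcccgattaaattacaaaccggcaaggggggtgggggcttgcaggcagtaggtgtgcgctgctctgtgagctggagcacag

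Add1 encodes alpha-adducin, the chain found in most cells. Its brightest probe set, 1450054_at, read 17727 and 16353 in the synaptic region and 17653 and 15907 in the non-synaptic region. The log2 difference was 0.02 ± 0.17 (SE, n = 2 per region, 95% interval -0.40 to 0.45), with overlapping regions. Probe set 1420954_a_at read 1168 and 3293 against 1819 and 3281. Its arrays numbered 1 were lower in both regions, by 1.17 log2 units, and the difference between regions was -0.32 ± 0.57. The third probe set, 1420953_at, gave -0.19 ± 0.41, also with both arrays numbered 1 the lower.

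Add3 encodes gamma-adducin, which pairs with alpha-adducin outside red blood cells. Its brightest probe set, 1423298_at, read 7059 and 8352 in the synaptic region and 6319 and 9276 in the non-synaptic region. The synaptic arrays lay between the non-synaptic ones, and the log2 difference was 0.004 ± 0.26 (SE, n = 2 per region, 95% interval -0.65 to 0.65). The other 3 probe sets lay close together, at -0.30 ± 0.25 for 1426574_a_at, -0.28 ± 0.21 for 1456162_x_at and -0.29 ± 0.35 for 1423297_at. None passed the test. Only 1456162_x_at had both synaptic arrays below both others, at 3196 and 3328 against 3583 and 4400.

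Other genes of the skeleton and its partners were taken from 6 lists and read from the brightest probe set of each gene. By limma 0 of the 42 genes tested passed in either direction, against 0.0113% of all probe sets tested. At an unadjusted limma p under 0.05, 1 was higher and 0 lower, against 0.986% of all probe sets in either direction. The median difference was 0.07 against 0.005 over 12363 genes. The 9 tested membrane proteins that bind ankyrins had the largest list median of those with more than 1 tested gene, at 0.25, with 5 set apart upward and 0 downward, against 9.89% and 9.98% of all probe sets tested. Nrcam, an adhesion molecule of nodes of Ranvier, read 689 and 751 in the synaptic region against 312 and 354, a log2 difference of 1.11 ± 0.35 (SE, n = 2 per region, limma unadjusted p = 0.0228). Nfasc, which encodes neurofascin of the same sites, read 858 and 608 against 505 and 376, at 0.73 ± 0.38, and gave 0.31 on the other tested probe set. The non-synaptic mean of Nfasc, 8.77, was also under the filter. The rest of those set apart upward were Slc8a1 at 0.46 ± 0.31, L1cam at 0.25 ± 0.24 and Atp1b1 at 0.15 ± 0.14. Other probe sets of Atp1b1 gave from -0.35 to 0.20. The Schwann cell markers given above were higher on the same arrays, and their part in these values was not tested.

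Of the cytoplasmic partners, 9 were tested and 4 were set apart upward and 0 downward, against the same 9.89% and 9.98%, with a median of 0.12. Tiam1, a Rac exchange factor, differed by 0.50 ± 0.28, Dctn4, a dynactin subunit that binds ankyrin-B, by 0.42 ± 0.24 and Utrn, the synaptic relative of dystrophin, by 0.39 ± 0.23. Other tested probe sets gave from -0.27 to 0.42 for Dctn4 and from -0.02 to 0.23 for Utrn. The giant sarcomere protein Ttn differed by -0.01 ± 0.14. None of these passed the test. The other adducin, Add2, differed by 0.64 ± 0.31 with both synaptic arrays above, and by -0.37 on its second probe set.

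The founding protein of the Epb41 family strengthens the contact of spectrin and actin, but Epb41 itself had no probe set of its own here. Of the 6 relatives tested, 1 was set apart upward and 2 downward, against 19.9% of all probe sets in either direction. Their median was 0.09. Epb41l4b differed by -0.47 ± 0.37 and Epb41l5 by 0.23 ± 0.31, but their other probe sets had the opposite sign, at 0.16 and 0.91 for Epb41l4b and -0.33 for Epb41l5. The 12 tested genes of the actin junction and band 3 complex had a median of -0.02, with the pointed-end capping protein Tmod2 at 0.33 ± 0.26 and Actb at 0.004 ± 0.16. The other probe sets gave from -0.35 to 0.47 for Tmod2 and 0.43 for Actb. The 5 calpain system genes, which include proteases that cut spectrin, had a median of -0.04, and none had regions apart.

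**Figure D4:**
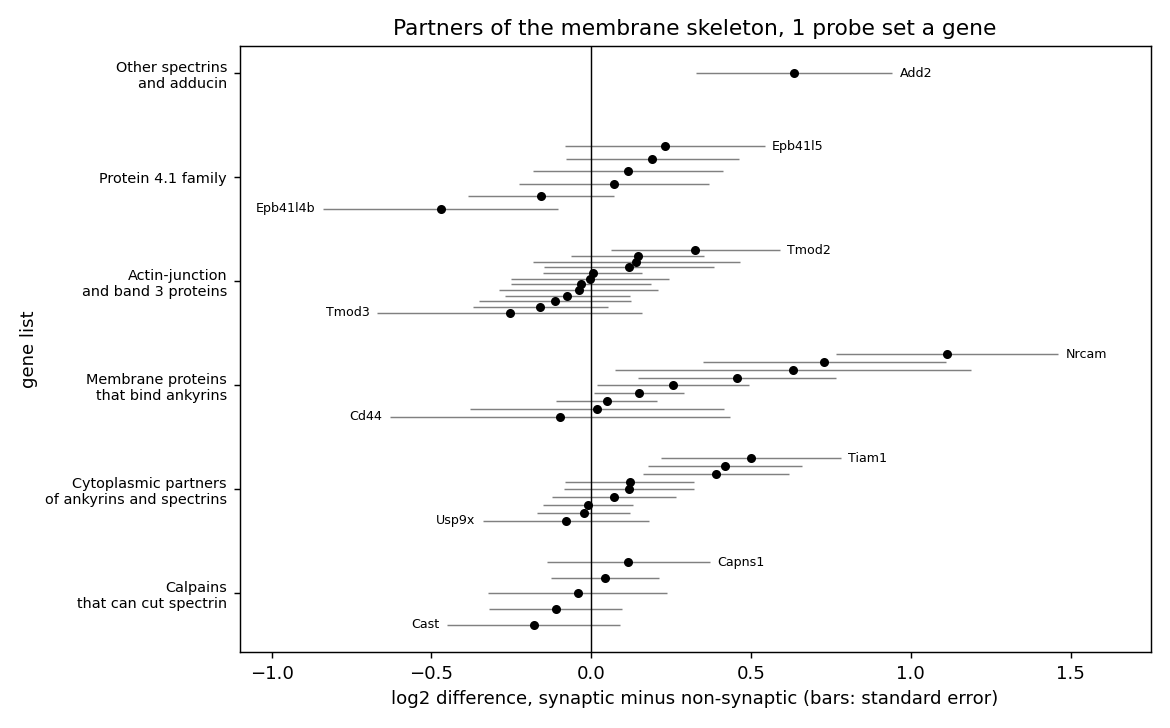
Log2 difference between the regions (x axis) for the tested genes of 6 partner lists (y axis), 1 probe set a gene, from 2 arrays per region. Points are limma estimates and bars are standard errors, and the lowest and highest gene of each list is named. Nrcam, at 1.11, is the farthest from 0.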

How the data were processed

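For 45101 probe sets, 64 of them controls, the authors deposited 1 linear intensity per array. The sources used here do not say how the arrays were scanned, summarised or scaled. With 2% cut at each end, the mean intensity came to 2500.0 on each of the 4 arrays, and this common level was kept. A shift of most transcripts together is hidden by such scaling.

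Values under 158.891, the 20th percentile, were raised to this floor before log2 was taken. Controls and probe sets whose mean log2 value was under 8.87, the 40th percentile, were not tested. Names came from the platform annotation, which can be old, and were updated by Entrez identifier with RefSeq, which matched 34754 of the 34958 probe sets that have 1 gene. No member was annotated to several genes. The gene and promoter tables are of GRCm38.p6.

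The test was that of limma 3.58.1 (R 4.3.3), with lmFit, a trended eBayes prior, 2-sided p-values adjusted by Benjamini-Hochberg over all tested probe sets and a threshold of 0.05. The residual degrees of freedom were 2, and the prior added 3.16. This fit took no account of the numbers in the titles, so its standard errors and intervals include the split between them. The labels do not name separate animals for the arrays, so a p-value reflects how much arrays vary, perhaps for technical reasons alone, and with 2 arrays per region precision is low. The partners named are, from each list, genes with the smallest unadjusted p or the highest mean, and all ankyrin-binding genes set apart upward. Members and lists were chosen with earlier results of these data known. Other normalizations, filters, floors and variance priors were tried, as were the replicate number as a block, fits without each array and the mean over a gene's probe sets.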

Additional observations from a re-analysis of the deposited data

How the results depend on the processing

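No member passed the limma threshold in any of the 13 alternative fits or at an adjusted p under 0.10, with 0 calls in each. The smallest adjusted limma p of a member was 0.230, of Ank1 without a filter on dim probe sets, from a probe set near the floor. Of the 27 members, 8 kept the sign of their difference in every alternative in which they were measured. The other 19 changed it in at least 1, all of these without a call. Each of these 19 changed sign in a fit without 1 array, which also leaves the numbers unequal between the regions. Under the other fits only Ank3 1457288_at changed sign, from -0.02 to 0.001 with median centring. The median over the members was -0.05 and ran from -0.21 to 0.05 when 1 array was left out. For 2 of the 8 genes the mean over tested probe sets had the other sign than the brightest probe set. Over all probe sets, the count higher in the synaptic region was 1 and became 6 with median centring, 3 with the filter at the 60th percentile, and 0 with no filter, the floor at the 40th percentile or no intensity trend. The lower count was 2 and became 0 with no filter, that floor or no trend. With 1 array left out, the higher count ran from 0 to 6 and the lower count from 0 to 5. The cause was not tested.

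With the replicate block, 56 probe sets were higher and 18 lower, and 0 members passed, with 6 of 27 members at an unadjusted p under 0.05 (22.2%, against 6.27% of all probe sets) in place of 1 (against 0.986%). The smallest adjusted p of a member was then 0.393, of Sptbn1 1444089_at. Deviations of same-numbered arrays from their region means had a Pearson correlation of 0.63 across 26480 probe sets, which are not independent. The titles do not say that the numbers pair the arrays, so the block was not the main design.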

Other observations

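Among the brightest probe sets of the members, that of Ank3 (1452124_at) had the largest difference between regions. Of 12363 genes, the 3 whose values lay nearest to it over the 4 arrays, after each gene's mean was subtracted, were Abca4, 2310010J17Rik and Jund, at Euclidean distances of 0.14, 0.14 and 0.16 log2 units. Jund, which encodes a subunit of the AP-1 transcription factor, had log2 values of 15.53 and 14.15 on the synaptic arrays and 14.85 and 14.17 on the non-synaptic arrays. Like Ank3, these genes differed mainly between arrays numbered 1 and 2, by 1.03 to 1.27, and less between regions, by 0.27 to 0.33. That likeness follows from choosing them by nearness. Over 4 arrays many genes can share such a pattern.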
